A study of Mus musculus with 12 samples.

Results

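This gene group holds 39 genes that supply amino acids and charged tRNA to the ribosome or make serine and folate-bound carbon. The members were 20 cytosolic aminoacyl-tRNA synthetases, 8 plasma membrane amino acid carriers or their subunits, and 11 genes of the ATF4 response and of serine and one-carbon metabolism. They were taken by symbol from the 24046 gene rows of the count files. All 39 were present, and all 39 passed the filter on low counts that left 12242 genes for testing.

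The series is about Jmjd1c, a gene of the histone demethylase family, in autoimmunity and antibody production. Follicular B cells, the recirculating naive B cells of the spleen, were sorted from mice labelled Jmjd1c WT or Jmjd1c KO. Their polyadenylated RNA was sequenced as labelled anti-IgM 0h, before the B cell receptor was cross-linked, and as anti-IgM 2h, after 2 h with the antibody. Each of the 4 groups (WT 0 h, WT 2 h, KO 0 h, KO 2 h) had 3 libraries, from 3 animals per genotype that were each measured at both times, and the replicate number is also the batch label. The deleted part of Jmjd1c, any Cre driver, the strain and the age of the mice are not stated in the labels used here. All 2 h libraries had anti-IgM, so time in culture and receptor cross-linking cannot be told apart. In these bulk samples, fewer cells of a type and less RNA per cell cannot be told apart either.

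Aminoacyl-tRNA synthetases join each amino acid to its tRNA, and several of them sit together in a multi-synthetase complex held by scaffold proteins. Carriers such as the heterodimer of SLC7A5 and SLC3A2 bring essential amino acids into lymphocytes, where they feed protein synthesis and the kinase mTORC1. ATF4 is a transcription factor whose protein is made more efficiently when eIF2 is phosphorylated or mTORC1 is active, and it is known to drive many of the genes described here. Serine made from glycolytic 3-phosphoglycerate passes its carbon to folate through the SHMT and MTHFD enzymes, which supply purine and thymidylate synthesis in cells that leave quiescence.

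Total counts ran from 5666013 to 14153396 per library, so that 3 counts stood for 0.183 to 1.01 CPM (counts scaled to a common library size with TMM normalisation factors). The share of counts on the ribosomal RNA gene Rn45s was 52.3% in KO 2 h replicate 1 and 24.8% in WT 2 h replicate 1. It was 12.9% to 15.5% in the 4 libraries of batch 2 and at most 1.09% in the other 6. Summed over a list of markers, B cell genes read 2705 to 5873 CPM per library, T cell genes 88.3 to 227 CPM and NK genes 7.85 to 15.7 CPM. Myeloid genes read 143 CPM in KO 2 h replicate 1 and 27.6 to 73.2 CPM in the other libraries. Within the T cell list Lck read 37.9 to 159 CPM, while Il7r reached 48.8 CPM and Cd3e 12.3 CPM. Jmjd1c itself read 359.7, 326 and 288 CPM in WT at 0 h (replicates 1, 2 and 3, the order used throughout) against 230.5, 236 and 196 CPM in KO. Every KO library was below every WT library of the same time, by −0.56 ± 0.13 (log2, SE) at 0 h and −0.52 ± 0.13 at 2 h. Neither difference passed edgeR's quasi-likelihood test (Benjamini-Hochberg adjusted p = 0.9999 and 0.887), and where the counted reads lie relative to the deletion is not known.

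Promoter sequences bear on members that move together, and the RefSeq promoter entries (GRCm38.p6) of 29 of the 39 members were searched. The remaining members, which include Hars, Lars and Nars, were left out of the search, so whether they hold either motif is not known. The tested genes and promoters set against the members were not narrowed in the same way, and the shares were not tested. The 250 bases before each start were searched on both strands for TGATGNAA, the core of the composite element that ATF4 binds with C/EBP proteins, and for CACGTG, the E-box bound by MYC among other factors. The matches of these motifs did not overlap each other. The first motif was present in 4 of 29 members (Aars, Asns, Gars and Tars), against 2.47% of 9125 tested genes with an entry and 3.45% of all 32851 promoters. The E-box was present in 3 of 29 (Aars, Farsb and Iars), against 10.1% of tested genes and 6.02% of all promoters. For Aars the tabulated start lies inside the gene's annotated span, so its window is not shown. The other matches are printed 5′ to 3′ on the gene's own strand with the motif in capitals, because they are the members whose upstream sequence can be set beside their change at 2 h.
Asns (chr6:7693210-7693252, minus strand): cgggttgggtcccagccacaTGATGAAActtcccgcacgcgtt
Gars (chr6:55037951-55037998, plus strand, motif on the opposite strand): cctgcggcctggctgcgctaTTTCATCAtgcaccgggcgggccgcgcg
Tars (chr15:11399659-11399693, minus strand, motif on the opposite strand): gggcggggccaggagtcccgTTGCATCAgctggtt
Farsb (chr1:78488911-78488956, minus strand): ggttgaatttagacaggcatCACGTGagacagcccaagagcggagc
Iars (chr13:49682041-49682086, plus strand): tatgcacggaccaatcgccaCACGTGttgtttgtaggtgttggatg
A match describes these letters only. Binding was not measured here, and a link between a motif and the change at 2 h was not tested.

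Resting WT cells held the members at very different levels when counts were divided by the length of each gene's merged exons. On that scale (CPM per kb) Atf4 was highest at 99.3 ± 9.03 (SD, n = 3), followed by Vars, the valine enzyme, at 89.6 ± 4.67. The glutamine and neutral amino acid carrier Slc1a5 stood at 63.1 ± 3.66 CPM per kb and Slc38a2, a sodium-coupled carrier of small neutral amino acids, at 48.4 ± 3.43. Apart from Vars, the synthetases lay between 6.602 ± 0.503 CPM per kb for Yars and 27.1 ± 0.92 for Nars. Lowest of the 39 were Asns, which makes asparagine, at 0.315 ± 0.15 CPM per kb and Slc1a4, a carrier of alanine, serine and cysteine, at 0.4802 ± 0.13. Of the 38 neighbouring pairs in this order, 26 had overlapping libraries, which included every pair from Nars down to Eprs. Merged exons include every annotated isoform, so the per-kb level of a gene with long rare exons is understated.

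**Figure D1:**
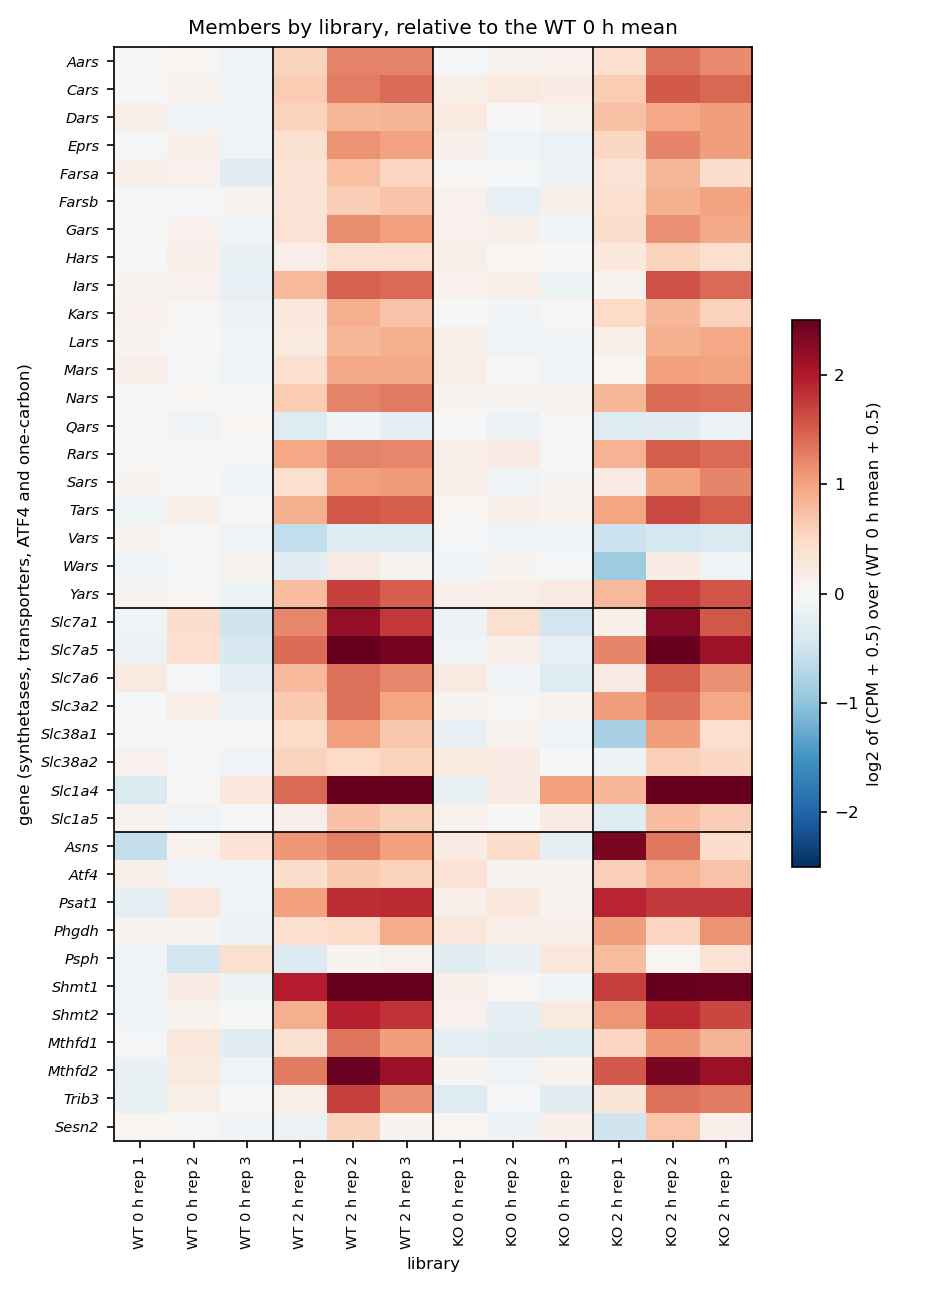
Each row is a gene and each column a library, coloured by the log2 ratio of its CPM (plus 0.5) to the WT 0 h mean (plus 0.5), with colours held at 2.5 in either direction. Most rows are red in the 2 h libraries of both genotypes and paler in replicate 1, whereas Vars and Qars are blue.

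After 2 h with anti-IgM, transcripts of most of the supply chain were higher in WT cells, from the enzymes that charge tRNA to the carriers and the serine and folate enzymes. Of the 39 members, 29 were called higher and 1 lower at an adjusted p under 0.05, where 10.7% of all 12242 tested genes were called higher and 9.06% lower. By part, 16 of 20 synthetases rose and 1 fell, 6 of 8 carriers rose, and 7 of 11 ATF4 and one-carbon genes rose. The median log2 difference was 0.83 for the synthetases, 1.10 for the carriers and 1.28 for the ATF4 and one-carbon genes, against 0.01 for all tested genes (a log2 difference of 1 is 2-fold). KO cells gave 31 higher and 1 lower, where 14.1% of tested genes were called higher and 13% lower, with medians of 0.82, 1.09 and 1.46 against 0.04 for all tested genes. In KO 17 synthetases, 5 carriers and 9 ATF4 and one-carbon genes rose, and 28 members were called higher in both genotypes.

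The number of calls changed when single libraries were left out, for the members and for all tested genes. Without WT 0 h replicate 3 the members called higher in WT fell to 14, and without WT 2 h replicate 2 to 15. All tested genes called higher fell from 1310 of 12242 to 796 of 12310 and to 728 of 12593 with these omissions. The same 2 omissions left 7 synthetases and 3 carriers each. In KO the count was 19 without KO 0 h replicate 3 and 20 without KO 2 h replicate 2. There 1230 of 12300 and 1422 of 12612 tested genes were called higher, against 1722 of 12242 with all libraries. With the animal as a replicate block 25 members were called higher in each genotype. All tested genes gave 1253 of 12242 higher in WT and 1578 in KO in that setting. In WT, 34 of the 39 members had every 2 h library above every 0 h library, as did 21.3% of all tested genes, and 1 had every 2 h library below, against 22.7%. In KO 26 members lay above, against 17.9%, and 1 below, against 19.6%.

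**Figure D2:**
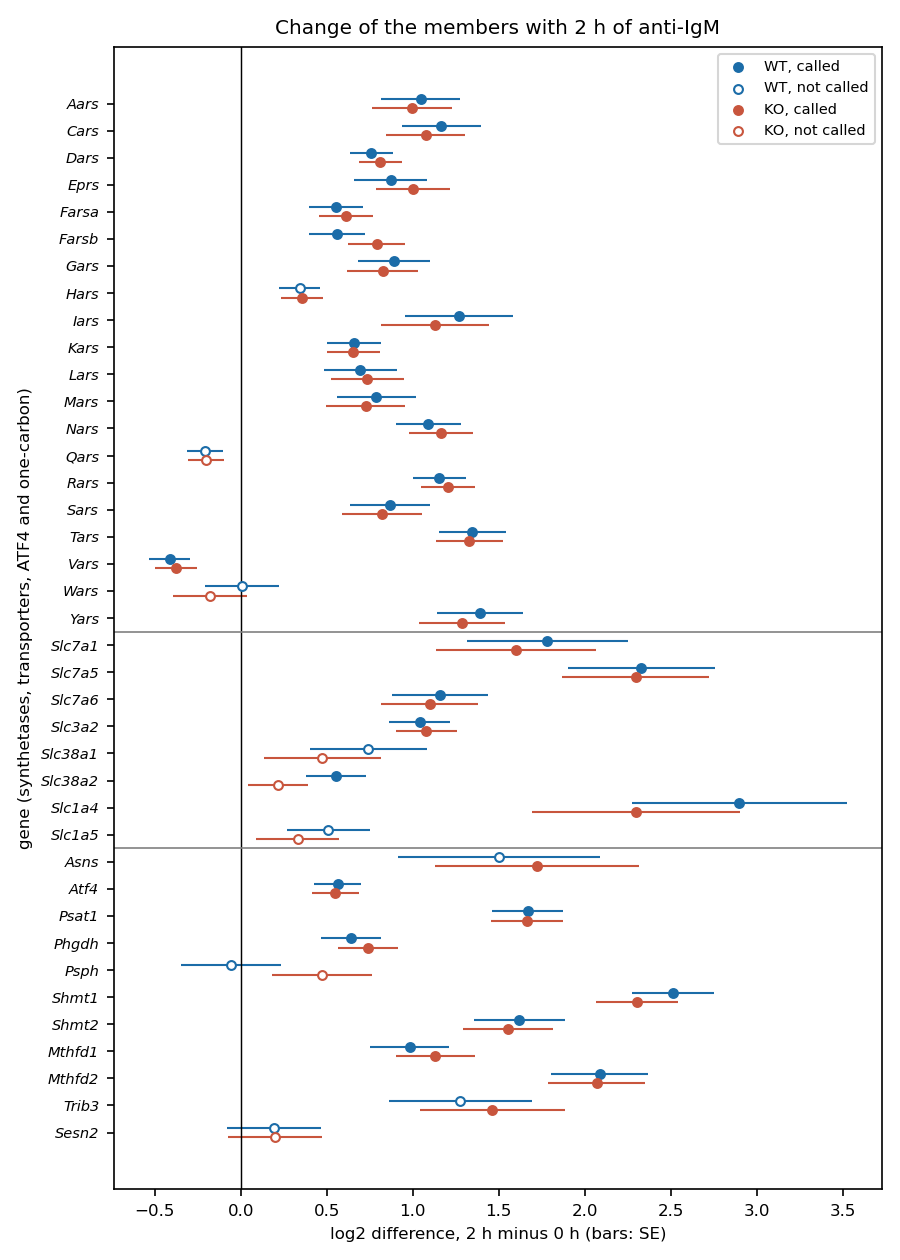
Points show the log2 difference between 2 h and 0 h for each member in WT (blue) and KO (red), with bars for the SE and filled symbols for calls at an adjusted p under 0.05. The blue and red points of most genes lie within one SE bar of each other, and Vars is the one filled pair left of zero.

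Among the synthetases the smallest p-values belonged to the enzymes for arginine, threonine, aspartate and asparagine. Rars (RefSeq chromosome 11, 35808381 to 35834528) read 53.6, 54.9 and 51.95 CPM in WT at 0 h and 105, 128 and 124 CPM at 2 h. In KO it read 58.6, 62.1 and 52.3 and then 98.8, 154 and 144 CPM. The 2 h libraries all stood above the 0 h libraries in both genotypes, with log2 differences of 1.15 ± 0.16 in WT (edgeR adjusted p = 0.000618) and 1.20 ± 0.16 in KO (0.000341). Tars (chromosome 15, 11383663 to 11399658), one of the genes with the ATF4-type core printed above, read 69.02, 81.4 and 71.4 CPM and then 137, 217 and 209 CPM in WT. Its KO libraries read 76.9, 80.3 and 78.8 CPM and then 146, 232 and 212 CPM. The log2 differences of Tars were 1.34 ± 0.20 in WT (edgeR adjusted p = 0.000896) and 1.33 ± 0.20 in KO (0.000701), again without overlap, and replicate 1 was the lowest of the 2 h libraries in each genotype.

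Dars, a member of the multi-synthetase complex on chromosome 1 (128363707 to 128417416), had a smaller log2 difference and a small SE. Its WT libraries read 71.2, 61.00 and 60.4 CPM at 0 h and 95.1, 114 and 116 CPM at 2 h, and its KO libraries 75.9, 64.5 and 68.5 and 108, 126 and 133 CPM. The log2 difference was 0.76 ± 0.13 in WT and 0.81 ± 0.13 in KO (edgeR adjusted p = 0.00187 and 0.000931). Nars, a free enzyme, went from 118, 122 and 114 CPM to 183, 279.9 and 291 CPM in WT and from 123, 124 and 125 CPM to 211, 314 and 308 CPM in KO. Its log2 difference was 1.09 ± 0.19 in WT and 1.17 ± 0.19 in KO (edgeR adjusted p = 0.00229 and 0.00114), and the times did not overlap for either gene.

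The other synthetases called in WT ran from Farsa, a subunit of the phenylalanine enzyme, at 0.55 ± 0.16 to Yars at 1.39 ± 0.25, the highest value among the 20. Iars, for isoleucine, rose by 1.27 ± 0.31 and Cars, for cysteine, by 1.17 ± 0.23. Among the genes with a printed motif, Gars rose by 0.89 ± 0.21 and Farsb by 0.56 ± 0.16. Aars rose by 1.05 ± 0.23, and 15.1% of its merged exons are shared with Exosc6 on the same strand, which read 20.9 to 73.1 CPM and rose by 0.98 ± 0.21 in WT. The Farsb, Lars and Mars calls in WT were lost with the animal as a replicate block, as were the Sars, Lars, Hars, Mars and Iars calls in KO. In KO, replicate 1 of Iars read 121 CPM at 0 h and 119 CPM at 2 h, and replicate 1 of Mars 97.3 and 89.6 CPM, and only animals 2 and 3 were higher at 2 h. Hars was called higher in KO at 0.36 ± 0.12 (edgeR adjusted p = 0.0462), was at 0.34 ± 0.12 in WT without passing (0.0665), and the genotypes' responses differed by 0.01 ± 0.17, which did not pass.

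Vars, Qars and Wars, chosen after their values were seen, did not go up with the rest. Vars fell from 525, 509 and 474 CPM to 327, 400.5 and 405 CPM in WT and from 488, 475 and 482 CPM to 346, 373 and 394 CPM in KO. Every 2 h library was below every 0 h library, and the log2 difference was −0.41 ± 0.12 in WT and −0.38 ± 0.12 in KO (edgeR adjusted p = 0.0322 and 0.0379). Both Vars calls were lost with the animal as a replicate block, without the low count filter and without all 4 libraries of batch 1. Leaving out any 1 of the 6 WT libraries also ended the WT call. Over all alternatives the adjusted p of Vars reached 0.117 in WT and 0.136 in KO. Qars, the glutamine enzyme of the complex, read 122, 112 and 124 CPM and then 95.8, 114 and 100.3 CPM in WT, a log2 difference of −0.21 ± 0.10 that did not pass (adjusted p = 0.201). Wars, the tryptophan enzyme, was at 0.01 ± 0.21 in WT and −0.18 ± 0.21 in KO with overlapping libraries, and its lowest value was 47.7 CPM in KO 2 h replicate 1.

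Enzymes inside and outside the multi-synthetase complex were set side by side, without a test between them. In WT 7 of 8 complex enzymes were called higher, with a median log2 difference of 0.77 over all 8, and 9 of 12 free enzymes, with a median of 0.88 over all 12. In KO these were 7 of 8 and 0.77 against 10 of 12 and 0.82. Of all tested genes 10.7% were called higher in WT and 14.1% in KO. The scaffold genes rose too, Aimp2 by 1.19 ± 0.22 and Eef1e1 by 1.18 ± 0.16 in WT and by 1.40 ± 0.22 and 1.61 ± 0.16 in KO, while Aimp1 was called in KO alone at 0.56 ± 0.13.

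The mitochondrial synthetases, encoded by separate genes, had a median change closer to that of all tested genes. In WT 2 of 17 were called higher, Yars2 by 0.89 ± 0.16 and Sars2 by 0.53 ± 0.15, and none lower, with a median of 0.20. In KO 3 were higher and 1 lower, with a median of 0.22. The counts called higher were near the share of all tested genes, which was 10.7% in WT and 14.1% in KO. Of all tested genes 9.06% and 13% were called lower. Over the alternatives the count of mitochondrial synthetases called higher ran from 1 to 7 in each genotype. Set against its own mitochondrial counterpart, the cytosolic gene had the larger log2 difference in 12 of 15 pairs in WT and 11 of 15 in KO, and the median gap was 0.55 and 0.53. The exceptions in both genotypes were Vars, Wars and Lars, and Farsa was a further one in KO. Lars was an exception through Lars2, whose difference was 1.56 ± 1.84 in WT and 3.18 ± 1.96 in KO, neither called, over libraries from 293 to 81758 CPM. The 6 libraries highest in Lars2 were those with 12.9% or more of their counts on Rn45s, and whether Lars2 counts hold ribosomal reads was not tested. Without that pair the cytosolic gene was the larger in 12 of 14 pairs in WT and 11 of 14 in KO. The pairs were not tested against each other.

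The carriers held the highest log2 difference of the 39 in WT, that of Slc1a4, and the most uneven replicates. Slc7a5 (chromosome 8, 121881146 to 121907686), the light chain of the main transporter of leucine and other large neutral amino acids, read 50.1, 74.4 and 42.7 CPM in WT at 0 h and 147, 395 and 295 CPM at 2 h. In KO it went from 52.4, 61.3 and 48.6 CPM to 130.2, 417 and 245 CPM. The times did not overlap, although replicate 1 at 2 h was well below replicates 2 and 3 in both genotypes. The log2 difference of Slc7a5 was 2.33 ± 0.43 in WT (edgeR adjusted p = 0.00312) and 2.29 ± 0.42 in KO (0.00248). Per kb of exon it went from 15.03 ± 4.47 to 75.3 ± 33.6 CPM per kb in WT (SD, n = 3).

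Slc3a2 (chromosome 19, 8706882 to 8723369), the heavy chain that several light chains need to reach the membrane, rose from 109, 124 and 100.1 CPM to 175, 289 and 220.4 CPM in WT. Its KO values were 116, 113 and 118 CPM and then 230.3, 283 and 217 CPM, and its log2 differences were 1.04 ± 0.18 and 1.08 ± 0.18 (edgeR adjusted p = 0.00215 and 0.00123). No 2 h library of Slc3a2 overlapped a 0 h library. On the per-kb scale Slc3a2 was above Slc7a5 at 0 h in WT (31.5 against 15.03 CPM per kb) and below it at 2 h (64.6 ± 16.3 against 75.3 ± 33.6), where their libraries overlapped.

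Slc7a6, another light chain partner of Slc3a2 that exchanges basic for neutral amino acids, read 77.8, 65.2 and 57.3 CPM and then 118, 175 and 154 CPM in WT, and 78.3, 63.3 and 53.6 CPM and then 77.1, 191 and 147 CPM in KO. In KO animal 1 its level was no higher at 2 h than at 0 h, and the KO groups overlapped. The log2 difference was 1.16 ± 0.28 in WT and 1.10 ± 0.28 in KO (edgeR adjusted p = 0.0133 and 0.0134). Slc1a4 was nearly silent at 0 h, at 1.35, 1.93 and 2.38 CPM in WT and 1.59, 2.26 and 4.33 CPM in KO, and reached 5.85, 17.9 and 18.7 and 3.72, 15.9 and 19.98 CPM at 2 h. The groups of Slc1a4 did not overlap in WT and overlapped in KO, and its log2 difference was 2.90 ± 0.63 in WT and 2.298 ± 0.61 in KO (edgeR adjusted p = 0.00748 and 0.0157). These rest on 16 to 65 counts per library at 0 h.

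Slc7a1, the arginine and lysine carrier, rose by 1.78 ± 0.47 in WT and 1.60 ± 0.46 in KO, where animal 1 showed a log2 difference of 0.27 against 1.89 and 2.02 in animals 2 and 3. The abundant sodium-dependent carriers moved least. Slc1a5 read 278, 248 and 264 CPM and then 287, 437 and 399.9 CPM in WT. In KO it read 286, 264 and 303 CPM and then 213, 452 and 406 CPM, and it was called in neither genotype. Slc38a2 was called in WT at 0.55 ± 0.17 (edgeR adjusted p = 0.0445, lost with the animal as a replicate block) and stood at 0.22 ± 0.17 in KO (0.37). The difference between these responses was −0.34 ± 0.25 and did not pass. Slc38a1, a glutamine carrier, read 448, 443 and 462 CPM and then 627, 918 and 715 CPM in WT, and 393, 479 and 422 CPM and then 256, 932 and 605 CPM in KO. Its KO 2 h replicate 1 was the lowest of all 12 libraries and replicate 2 the highest, and neither genotype passed. Without KO 2 h replicate 1, all 8 carriers were called higher in KO, as were 2135 of 12516 tested genes.

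Carriers outside the group were called about as often as genes at large in WT. The member carriers and this list were chosen with earlier results of these data known, so setting them side by side is no test. Of 22 tested in a wider list, 2 were called higher and 2 lower in WT, with a median log2 difference of 0.14, and 1 higher and 4 lower in KO, with a median of 0.24. All tested genes gave 10.7% higher and 9.06% lower in WT and 14.1% and 13% in KO. Over the alternatives the KO counts ran from 0 to 3 higher and from 1 to 5 lower. Slc43a2, a facilitated carrier of large neutral amino acids, fell by 1.94 ± 0.23 in WT and by 2.19 ± 0.23 in KO on the log2 scale. The mitochondrial aspartate and glutamate exchanger Slc25a12 was at −0.75 ± 0.20 and −0.67 ± 0.21, both called. The glycine carrier Slc6a9, at few counts (0.0793 to 0.603 CPM at 0 h in WT), rose by 2.62 ± 0.77, and the mitochondrial glutamate carrier Slc25a22 by 0.84 ± 0.24.

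**Figure D3:**
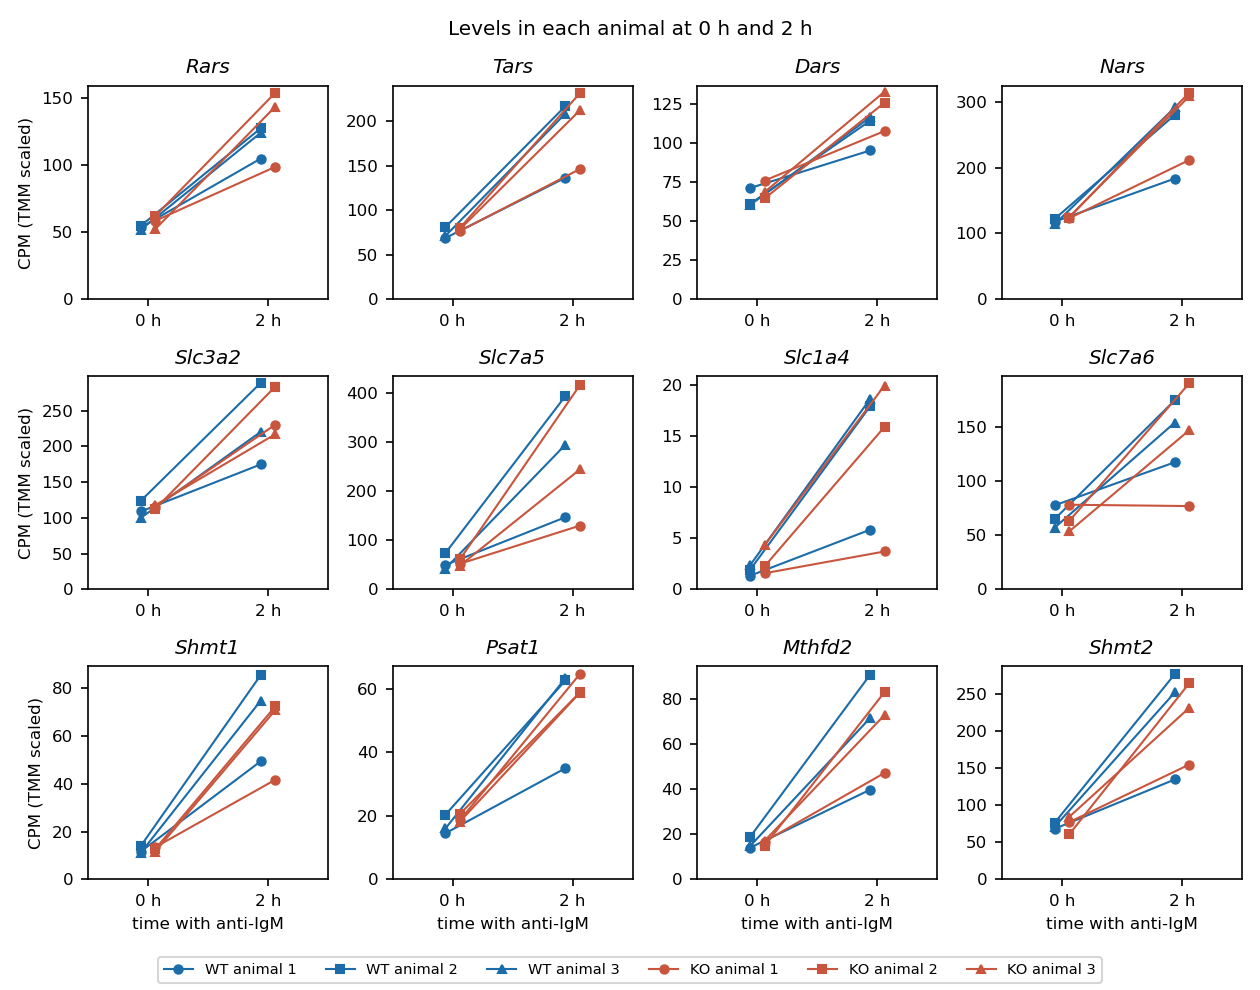
Each line joins the 0 h and 2 h level (CPM) of 1 animal for the 4 members per group with the smallest p in WT, with WT in blue, KO in red and a symbol for each replicate number. Lines of WT and KO lie among each other, and those of replicate 1 (circles) are the flattest in most panels.

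Atf4 itself rose modestly from a high level. It read 259, 222 and 222 CPM and then 316, 371 and 352 CPM in WT, and 302, 244 and 248 CPM and then 353, 426 and 384 CPM in KO. The log2 difference was 0.56 ± 0.14 in WT and 0.55 ± 0.14 in KO (edgeR adjusted p = 0.0127 and 0.0113), without overlap between the times. RNA levels carry no measure of ATF4 protein, which is controlled mainly in translation.

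The serine pathway showed its highest log2 difference at the second of its steps, though the enzymes were not tested against each other. Phgdh, which takes 3-phosphoglycerate out of glycolysis, rose by 0.64 ± 0.17 in WT and 0.74 ± 0.17 in KO. Psat1 (chromosome 19, 15905123 to 15925059), the transaminase that follows, read 14.5, 20.4 and 16.04 CPM and then 34.99, 62.6 and 63.3 CPM in WT, and 18.6, 20.6 and 18.2 CPM and then 64.6, 58.8 and 58.7 CPM in KO. Its log2 difference was 1.67 ± 0.21 in WT and 1.66 ± 0.21 in KO (edgeR adjusted p = 0.000428 and 0.000279), and the times did not overlap. Psph, the phosphatase of the last step, read 8.57, 6.27 and 12.01 CPM and then 6.92, 9.38 and 9.65 CPM in WT, with a log2 difference of −0.05 ± 0.29 that did not pass, and 0.47 ± 0.29 in KO. The merged exons of Psph share 10.4% of their length with Cct6a on the other strand, which stood at 124 to 303 CPM and rose by 0.86 ± 0.14 in WT. Whether the counting used strand is not known here.

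Shmt1 had the smallest p of all 39 members in each genotype. This gene encodes the cytosolic enzyme that moves the serine carbon to folate (chromosome 11, 60788897 to 60811265), and it read 11.7, 13.98 and 11.2 CPM at 0 h and 49.4, 85.4 and 74.7 CPM at 2 h in WT. In KO it went from 13.5, 12.7 and 11.7 CPM to 41.6, 72.2 and 70.6 CPM. The log2 difference was 2.51 ± 0.24 in WT and 2.303 ± 0.24 in KO (edgeR adjusted p = 0.000104 and 0.000105), with the times far apart in each animal. Shmt2, its mitochondrial counterpart (chromosome 10, 127517123 to 127522444), went from 68.2, 76.4 and 70.98 CPM to 135, 276 and 252 CPM in WT and from 77.1, 60.6 and 84.2 CPM to 155, 264 and 231 CPM in KO. That was a log2 difference of 1.62 ± 0.26 and 1.55 ± 0.26 (edgeR adjusted p = 0.00165 and 0.00146), again without overlap. On the per-kb scale Shmt2 stayed above Shmt1, at 71.02 against 17.98 CPM per kb at 2 h in WT.

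Mthfd2 (chromosome 6, 83305704 to 83326011), the mitochondrial dehydrogenase that is known to be low in resting and high in dividing cells, read 14.1, 18.9 and 14.9 CPM and then 39.9, 91.03 and 71.8 CPM in WT, and 16.9, 14.9 and 17.1 CPM and then 47.3, 83.3 and 73.1 CPM in KO. Every 2 h library was above every 0 h library, with log2 differences of 2.09 ± 0.28 and 2.07 ± 0.28 (edgeR adjusted p = 0.000619 and 0.000444). Mthfd1, the cytosolic enzyme with the same step among its activities, rose by 0.98 ± 0.23 and 1.13 ± 0.23. The calls of Shmt1, Shmt2, Mthfd2 and Psat1 in both genotypes held under each of the 18 alternatives, with adjusted p-values of at most 0.0123.

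Asns, Trib3 and Sesn2, known stress targets of ATF4 that were named after their values were seen, were low or flat. Asns, one of the genes with the printed ATF4-type core, read 0.397, 0.964 and 1.22 CPM and then 2.395, 2.75 and 2.27 CPM in WT, and 1.06, 1.36 and 0.666 CPM and then 6.43, 2.898 and 1.36 CPM in KO. These are 5 to 29 counts per library. The log2 difference was 1.502 ± 0.59 in WT, not called (edgeR adjusted p = 0.0971), and 1.72 ± 0.59 in KO, called at 0.0499, with adjusted p-values from 0.0156 to 0.238 over the alternatives. Trib3, a pseudokinase that feeds back on ATF4, was at 2.04 to 9.86 CPM and at 1.28 ± 0.42 in WT (adjusted p = 0.0512) and 1.46 ± 0.42 in KO (0.0237). Sesn2, a leucine sensor of the mTORC1 pathway, was at 0.19 ± 0.27 and 0.20 ± 0.27 with overlapping times.

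At 2 h 10.7% of all tested genes were called higher and 9.06% lower in WT, and 14.1% and 13% in KO. Beyond the members, 5 of 18 other ATF4 targets were called higher and none lower in each genotype, with medians of 0.61 in WT and 0.89 in KO. They were Pycr1 and Aldh18a1 of proline synthesis, at 2.15 ± 0.43 and 1.43 ± 0.26 in WT, the transcription factors Atf5 at 1.14 ± 0.18 and Ddit3 at 1.01 ± 0.15, and the translation inhibitor Eif4ebp1 at 0.65 ± 0.19. Among 7 eIF2 kinases and cofactors, the endoplasmic reticulum kinase Eif2ak3 fell by 1.04 ± 0.15 in WT and 1.39 ± 0.15 in KO on the log2 scale. The eIF2 subunit Eif2s1 rose by 1.05 ± 0.19 and 1.04 ± 0.19.

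Other folate and methionine genes gave 8 higher and 1 lower of 22 in WT (median 0.49) and 9 higher and 1 lower in KO (median 0.54). Over all tested genes the shares called higher and lower were 10.7% and 9.06% in WT and 14.1% and 13% in KO. Gcsh of the glycine cleavage system rose by 1.77 ± 0.20 in WT and the folate carrier Slc19a1 by 1.98 ± 0.29. Serine racemase, Srr, rose by 1.20 ± 0.21 and Mat2a, which makes S-adenosylmethionine, by 1.43 ± 0.29. The regulatory subunit gene Mat2b was called lower, at −0.41 ± 0.11. In the list of amino acid sensing by mTORC1, 5 genes were higher and 4 lower of 21 in each genotype (1 to 7 higher in KO over the alternatives), and the median was 0.11 in WT. The GTPases Rragd at 2.65 ± 0.48 and Rragc at 0.64 ± 0.14, the lysosomal anchor Lamtor1 at 0.71 ± 0.14 and folliculin, Flcn, at 0.91 ± 0.18 were the 4 with the smallest p in WT. Myc, known to drive synthetase and folate genes in activated lymphocytes, read 105, 123 and 70.00 CPM and then 737, 1272 and 798 CPM in WT, a log2 difference of 3.23 ± 0.35, and 3.07 ± 0.35 in KO.

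**Figure D4:**
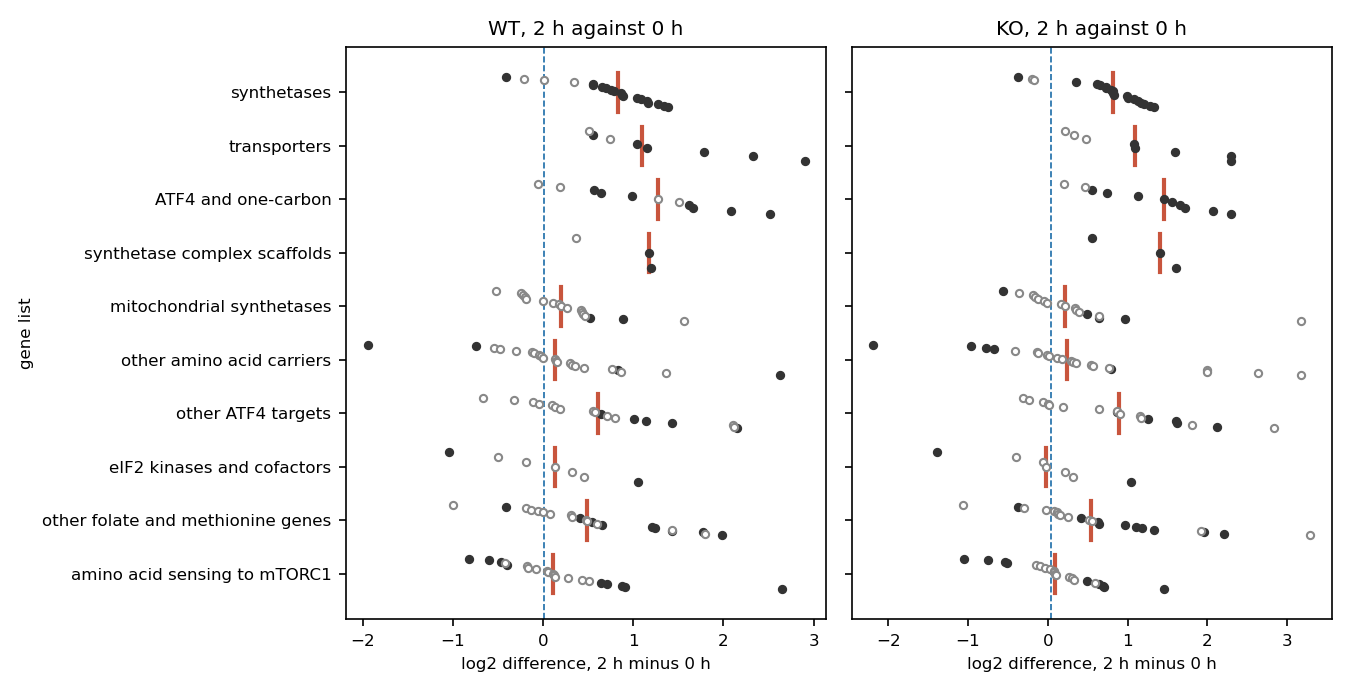
Each point is a gene's log2 difference between 2 h and 0 h, filled where called at an adjusted p under 0.05, with a red bar for the list's median and a dashed line for the median of all tested genes. The medians of the 3 member groups and the scaffolds lie between 0.82 and 1.46, and those of the mitochondrial synthetases, the other carriers and the sensing genes between 0.09 and 0.24. The other ATF4 targets have medians of 0.61 in WT and 0.89 in KO, and the other folate and methionine genes 0.49 and 0.54. For the eIF2 kinases and cofactors they are 0.14 and −0.02. The lists were chosen with earlier results of these data known.

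The response was smaller in the animals of batch 1. Over the 39 members the median log2 difference was 0.43, 1.06 and 1.12 in WT animals 1, 2 and 3, and 0.45, 1.11 and 1.07 in KO animals. Animal 1 gave the smallest of the 3 values for 29 of the 29 members called higher in WT and for 27 of the 31 in KO. In KO the carriers had a median of 0.12 in animal 1 against 1.46 and 1.17. In WT the ATF4 and one-carbon genes had a median of 0.43 in animal 1 against 1.35 and 1.22, and the carriers 0.64 against 1.32 and 1.28. The 4 exceptions in KO were Psat1, at 1.78 in animal 1 against 1.51 and 1.68, Phgdh, Slc3a2 and Asns. The 2 h libraries of batch 1 were also those with the highest Rn45s share. They held 529 CPM (KO) and 138 CPM (WT) of the proliferation gene Mki67. The libraries of batch 2, next in Rn45s share, held 67.2 to 97.1 CPM, and the remaining libraries 8.81 to 14.5 CPM. Libraries high in Rn45s were thus high in Mki67 at both times, and the reason was not tested. The summed level of 8 proliferation markers was 241 to 403 CPM in WT 0 h and 368 to 561 CPM in WT 2 h. In KO it was 249 to 353 CPM at 0 h, and 1270, 552 and 370 CPM in replicates 1, 2 and 3 at 2 h. The summed B cell markers read 2705 to 4633 CPM in KO 2 h against 5107 to 5873 CPM in KO 0 h, and 2954 to 4194 CPM in WT 2 h against 4463 to 5582 CPM in WT 0 h. The summed myeloid markers read 143, 48.4 and 47.3 CPM in KO 2 h, so that only replicate 1 stood apart. In the other 3 groups they were at 27.6 to 73.2 CPM. The summed T cell markers read 111 to 166 CPM in WT 0 h and 153 to 227 CPM in WT 2 h, and 88.3 to 123 CPM and 123 to 222 CPM in KO. Lck, a kinase of T cell receptor signalling, was the only 1 of the 8 called, at 1.34 ± 0.23 in WT and 1.42 ± 0.24 in KO (log2 difference, SE). Of the other 7 T cell markers 6 had a negative difference in each genotype, with a median of −0.19 in WT and −0.32 in KO. The summed NK markers stayed at or under 15.7 CPM, erythroid markers at or under 37.5 CPM and plasma cell markers at or under 264 CPM in every library. No tested NK or erythroid marker was called at 2 h in either genotype. Of the plasma cell markers Prdm1 rose by 0.96 ± 0.24 and Mzb1 fell by 1.21 ± 0.31 in WT, and none was called in KO. Tnfrsf17 of plasma cells was at 0 in 6 of 12 libraries and Ncr1 of NK cells in 1. The part of these in the members' change was not tested. Without both 2 h libraries of batch 1, 33 members were called higher in WT and 33 in KO. Of 12475 tested genes 1876 were called higher in WT and 2038 in KO in that setting.

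Between the genotypes no member passed at either time. At 0 h 0 of 39 members were called, where 0% of all 12242 genes were called, and at 2 h again 0 of 39 against 0%. None of the 39 had an unadjusted p under 0.05 at either time, where 91 of all 12242 tested genes did at 0 h and 640 at 2 h. Such genes were a small share of all tested genes, so their absence here does not set the members apart. DESeq2 called none of the members. The log2 difference (KO minus WT) ran from −0.27 to 0.54 at 0 h and from −0.33 to 0.49 at 2 h. The 95% interval lay within 1 log2 unit of zero for 35 of the 39 members at 0 h and for 34 at 2 h, which included all 20 synthetases each time. These intervals come from the fit without batch. KO and WT libraries of the same batch and time deviated together (r from 0.54 to 0.74 at 0 h and from 0.27 to 0.86 at 2 h). With batch as a replicate block 0 members were called and 0 had an unadjusted p under 0.05 at either time. Of all 12242 tested genes 160 had such a p at 0 h and 885 at 2 h in that fit. Its interval lay within 1 log2 unit for 37 members at 0 h and 36 at 2 h. Within the 3 batch pairs, KO was above WT in every pair for 14 of the 39 members at 0 h and below in every pair for 3, where 14.5% and 14.8% of all tested genes were. For the synthetases these were 8 and 1 of 20. At 2 h the members gave 9 above and 2 below, against 16.5% and 16.6% of all tested genes. These signs are given without a test.

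**Figure D5:**
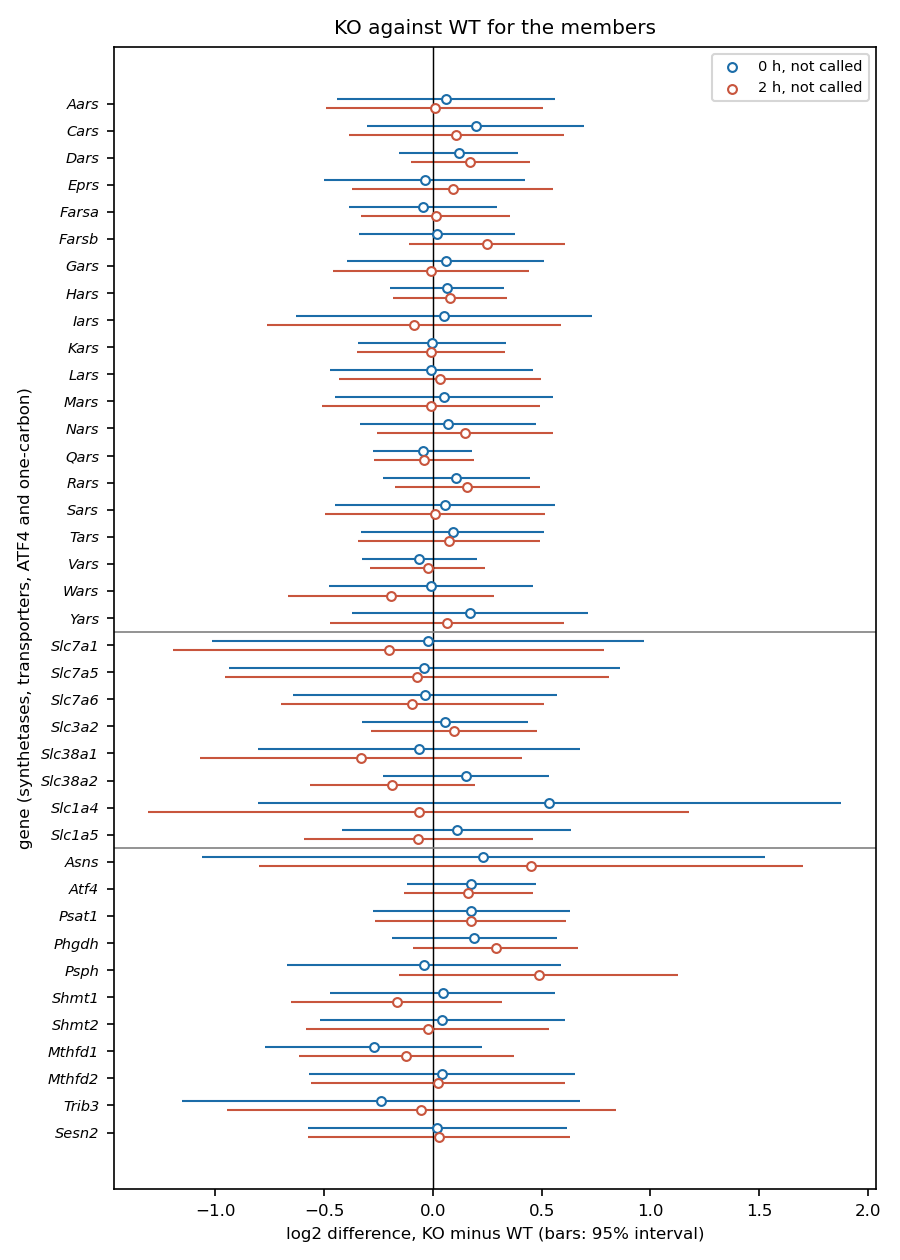
Points show the log2 difference between KO and WT for each member at 0 h (blue) and 2 h (red), with bars for the 95% interval and open symbols because none was called. Every interval includes zero, and the 2 widest at each time belong to Slc1a4 and Asns.

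The members farthest from zero in each group had these values. Cars, the synthetase farthest from zero at 0 h, read 54.8, 57.5 and 50.9 CPM in WT against 60.5, 64.6 and 61.97 CPM in KO, which is a log2 difference of 0.20 ± 0.23 (95% interval −0.30 to 0.70) with no overlap between the genotypes. At 2 h it read 85.2, 134 and 147 and 85.2, 159 and 147 CPM, with overlap. Slc1a4 differed by 0.54 ± 0.61 at 0 h (95% interval −0.81 to 1.88), where KO replicate 3 was above the rest. Mthfd1 read 43.95, 55.3 and 37.4 CPM in WT and 38.2, 38.00 and 36.7 CPM in KO at 0 h, which is a log2 difference of −0.27 ± 0.23 (95% interval −0.77 to 0.23). Its lowest WT library lay inside the narrow KO range.

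At 2 h the synthetase farthest from zero was Farsb, with 55.8, 68.4 and 73.4 CPM in WT and 58.8, 83.7 and 90.3 CPM in KO. The log2 difference was 0.25 ± 0.16 (95% interval −0.11 to 0.61), and the groups overlapped. Its 0 h values were 43.4, 43.6 and 47.1 CPM and 48.2, 38.6 and 48.8 CPM. Slc38a1, whose library values stand above, differed by −0.33 ± 0.34 (95% interval −1.07 to 0.41). Psph read 6.92, 9.38 and 9.65 CPM in WT and 15.9, 9.296 and 11.6 CPM in KO at 2 h, which is a log2 difference of 0.49 ± 0.29 (95% interval −0.16 to 1.13). The highest value was that of KO replicate 1.

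At 0 h 4 members had every KO library above every WT library, namely Cars, Nars, Yars and Phgdh, where 2.95% of all tested genes did, and none lay entirely below, against 2.9%. At 2 h no member was apart in either direction, against 4.62% and 3.59%. The log2 differences of these 4 at 0 h were 0.20 ± 0.23, 0.07 ± 0.19, 0.17 ± 0.25 and 0.19 ± 0.17.

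The change from 0 h to 2 h was also compared between the genotypes by an interaction contrast. Among all tested genes 0% were called, and 0 of the 39 members. None of the members had an unadjusted p under 0.05, where 39 of all 12242 tested genes did. The difference (KO minus WT) ran from −0.60 ± 0.83 for Slc1a4 to 0.53 ± 0.41 for Psph. For the members with the smallest p at 2 h it was 0.05 ± 0.22 for Rars (95% interval −0.43 to 0.53), 0.04 ± 0.25 for Slc3a2 (−0.50 to 0.58) and −0.21 ± 0.32 for Shmt1 (−0.92 to 0.50). The 4 members called in 1 genotype alone (Slc38a2, Hars, Asns and Trib3) gave −0.34 ± 0.25, 0.01 ± 0.17, 0.22 ± 0.83 and 0.19 ± 0.58.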

How the data were processed

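Poly(A) RNA of 12 libraries was analysed from the deposited count of reads per gene symbol, 1 file per library. The counts are raw whole numbers, and reads were aligned with STAR to mm10 per the submitters' processing notes. The counting tool, its use of strand and how ambiguous reads were treated were not stated in the labels. CPM values, fits and all other values were computed here from the deposited counts.

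Counts were filtered with filterByExpr on the 4 groups, scaled by TMM and fitted with edgeR 4.0.16 (R 4.3.3), with 1 mean per group over all 12 libraries. Quasi-likelihood tests, two-sided, were made for 5 contrasts, and p-values were adjusted by Benjamini-Hochberg over all 12242 tested genes and called under 0.05. The SE is the log2 difference divided by the square root of F, and 95% intervals use the fit's degrees of freedom. Values by animal are differences of log2 CPM with a prior count of 2. DESeq2 1.42.0, other scalings and filters, blocks and omitted libraries were alternatives. The code was tested on simulated data. Limits of 3 counts cover counting error only. The range of library totals bears on the precision. The p-values measure the spread between libraries within groups, pooled over the 4 groups. Both libraries of an animal were fitted as independent, and this spread includes differences between batches.

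Library names tie the times of each animal together, and the batch label ties KO and WT libraries, so replicate numbers pair the samples over time and between genotypes. Correlations of deviations from the group means ran from −0.40 to 0.59 in the 6 pairs from the same animal, from −0.40 to 0.86 in the 12 pairs of the same number and different animals, and from −0.76 to 0.62 between libraries of different number. No libraries agreed within sampling noise (lowest chi-square per degree of freedom 13.1).

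The 39 members and the other lists were chosen with earlier results of these data known, and some lists hold genes picked that way. Full values are given for the called members of each part with the smallest p in WT (up to 4). They are also given for the member farthest from zero in each genotype comparison (1 a part and time). From each list of related genes up to 4 with the smallest p in WT are named with log2 differences. Further called genes of the other ATF4 targets and of the folate and methionine list were named after their values were seen. Other members are named after their values were seen. Exon lengths come from GENCODE M21 (GRCm38), and gene positions and promoters from RefSeq GRCm38.p6, where Mars was matched by synonym. Merged exons of 10 members overlap another gene, 2 of them over 10% of their length.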

Additional observations from a re-analysis of the deposited data

How the results depend on the processing

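No called member changed sign, and no member was called between the genotypes or in the interaction under any setting run. In WT the 29 members called higher became 25 to 34 under settings that keep all libraries or leave out batch 1, and in KO the 31 became 20 to 33. The low value in KO, 20, came from fitting only the groups compared, where 2 carriers were called in place of 5 and Vars was not called (0 lower). In that setting 937 of 11818 tested genes were called higher in KO, against 1722 of 12242 in the main fit. The animal as a replicate block gave 25 members higher and 0 lower in each genotype. The batch as a replicate block gave 31 higher in WT and 30 in KO. It changed no other call than Trib3 and Hars, added in WT, and Asns, lost in KO. The 1 lower call, Vars, became 0 in both genotypes without the low count filter, with the animal block and without all 4 libraries of batch 1. In KO 8 carriers were called higher without the 2 h libraries of batch 1, with or without the batch block, and without all 4 libraries of batch 1. The settings that join the batch block with omitted libraries, or leave out all of batch 1, were chosen after seeing the data.

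With single libraries left out, the members called higher ran from 14 to 30 in WT and from 19 to 33 in KO. All tested genes called higher ran from 728 to 1367 in WT and from 1200 to 2135 in KO, against 1310 and 1722 in the main fit. By part, the members changed as follows. The synthetases ran from 7 to 17 and from 10 to 17, the carriers from 3 to 5 and from 3 to 8, and the ATF4 and one-carbon genes from 4 to 8 and from 6 to 8. The count called lower was 0 to 0 in WT and 0 to 1 in KO, for all members as for the synthetases. Synthetases called higher in WT numbered 10 and 7 when replicates 1 and 3 of the 0 h group were omitted, and 7 and 9 when replicates 2 and 3 of the 2 h group were. Carriers called in WT numbered 3 with 0 h replicate 3 or 2 h replicate 2 omitted, and ATF4 and one-carbon genes 4 with that 0 h library omitted. In KO, omitting 0 h replicate 3 or 2 h replicate 2 left 10 synthetases and 3 carriers. Omitting KO 0 h replicate 1 also left 3 carriers, and omitting KO 2 h replicate 1 gave 8. Fewer samples were fitted there, and the cause was not tested further. Depth limits Asns, Slc1a4 and Trib3 most, since they had the fewest counts. Among the comparison lists, the count called higher over all alternatives ran from 4 to 8 in WT and from 5 to 8 in KO for the other ATF4 targets. For the other folate and methionine genes it ran from 4 to 10 and from 5 to 9, for amino acid sensing from 4 to 7 and from 1 to 7, and for the other carriers from 0 to 3 in each. Counts called lower were 0 to 5 in WT and 3 to 4 in KO for amino acid sensing, 1 to 4 and 1 to 5 for the other carriers, and at most 3 in the remaining lists of related genes.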

Other observations

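Lars2, the mitochondrial partner of Lars, was the most uneven gene among the synthetases. It read 739, 10302 and 427 CPM in WT 0 h, 21655, 11972 and 293 CPM in WT 2 h, 416, 9763 and 427 CPM in KO 0 h and 81758, 13727 and 336 CPM in KO 2 h (replicates 1, 2 and 3). The 6 libraries with the highest Lars2 values were the 6 with 12.9% or more of their counts on Rn45s. Its log2 difference was called in neither genotype, and whether its counts hold ribosomal reads was not tested. Lars itself, in the same libraries, stayed between 98.4 and 206 CPM.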
